A study of Mus musculus with 6 samples.

Results

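The REG genes (regenerating family) encode small secreted proteins built around a single C-type lectin-like domain. All 7 of them that the mouse table lists, Reg1, Reg2, Reg3a, Reg3b, Reg3d, Reg3g and Reg4, were taken by symbol from its 23550 genes. The family was selected on its levels in these same saline and Riclin libraries, which were known when it was picked, so its differences between the groups are described and carry no test. RNA came from mouse stomach in 6 libraries. The 3 saline libraries (replicates 1, 2 and 4) came from mice gavaged with normal saline, and the 3 Riclin libraries (replicates 2, 3 and 4) from mice gavaged with 20 mg per kg of Riclin, which the study calls a soluble fibre of the diet. The study describes a 14-day gavage of 20 mice, asking how Riclin acts on the defence barrier of the gastric mucosa, and a separate ethanol experiment with other groups. The saline label carries the same dose figure as the Riclin label. The sources used here do not give strain, sex or age, which of these experiments the 6 libraries came from, whether their mice received ethanol, or whether each library came from its own animal.

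In rodents, Reg1, Reg2 and Reg3d are best known as products of pancreatic acinar cells, the cells that secrete digestive enzymes. Reg3b and Reg3g are antibacterial lectins of the intestinal epithelium that are induced by microbes and by interleukin 22 through STAT3, and Reg3b was first described as a pancreatitis-associated protein. Reg4 is a gene of goblet and endocrine cells of the gut.

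The libraries held 30884067 to 40050267 reads by totals inferred from the FPKM values, and all read counts and shares of reads rest on these totals. Transcripts of pancreatic acinar cells were present in all of them. A list of 27 measured acinar genes took 4.15% to 16.7% of reads in 5 libraries and 0.0636% in Riclin replicate 3. The enzyme genes Cpa1 and Ctrb1 measured at least 1531 and 6922 FPKM (fragments scaled by the length of the gene and the depth of the library) in those 5 libraries, against 0 and 0.197 FPKM in Riclin replicate 3. The sources used here do not say whether pancreas was taken along with the stomach. The chief cell gene Cblif, a stomach marker, stood at 2034 FPKM in that library, the highest of the 6. Because Riclin replicate 3 stands apart, the comparisons of the REG genes and of the gene lists are given with and without it.

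On GRCm38, the assembly named mm10, 6 of the genes lie within 98.2 kb of chromosome 6, from 78370657 to 78468872. Their order is Reg3b, Reg3d, Reg3a, Reg2, Reg1 and Reg3g, with Reg3d and Reg3g on the minus strand. Reg4 lies apart on chromosome 3, from 98222156 to 98236748 on the plus strand. All 7 are protein-coding. Their longest coding transcripts hold 157 to 175 codons. In coding sequence the closest pair was Reg1 and Reg2 at 78.8% identity, followed by Reg3b and Reg3g at 76.0% and Reg3a and Reg3b at 73.9%. Reg4 shared at most 54.8% with any other member. The longest stretch common to any pair of transcripts was a run of 35 bases in Reg3b and Reg3g, shown here because it bounds how far reads of those genes could be confused: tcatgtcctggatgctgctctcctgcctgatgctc. That bound holds only for exact matches between the longest coding transcripts of these genes, and not for reads placed with mismatches. The sources used here give neither read length nor the handling of reads that fit several genes, so exchange of short reads between Reg3b and Reg3g was not tested.

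The sequence upstream of the gene start is shown for the 5 genes on which the results turn, from RefSeq (GRCm38.p6), 5′ to 3′. Each shows the longest stretch of the 250 upstream bases that lies outside annotated exons. The RefSeq start is not always the start of the GENCODE gene given above: it lies 3272 bases inside that gene for Reg1, 9532 for Reg2 and 228 for Reg3b, so these stretches fall within the GENCODE spans. Capitals mark CACCTG, an E-box of the class bound by factors such as the acinar regulator PTF1A, and TGCCAA, each on either strand. All motifs were picked after the sequences were seen, and those beyond the stretch shown are counted but not printed.
Reg1 (chr6:78425733-78425929, plus strand): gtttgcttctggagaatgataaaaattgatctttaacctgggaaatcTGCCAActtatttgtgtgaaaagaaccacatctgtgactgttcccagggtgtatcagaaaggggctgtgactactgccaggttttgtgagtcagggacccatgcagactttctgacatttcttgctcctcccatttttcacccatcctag
Reg2 (chr6:78404905-78405154, plus strand): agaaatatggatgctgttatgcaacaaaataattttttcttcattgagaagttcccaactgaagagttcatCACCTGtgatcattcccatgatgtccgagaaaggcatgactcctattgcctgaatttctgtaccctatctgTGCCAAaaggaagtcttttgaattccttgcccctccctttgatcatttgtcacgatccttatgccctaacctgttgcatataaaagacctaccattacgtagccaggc
Reg3a (chr6:78380459-78380708, plus strand): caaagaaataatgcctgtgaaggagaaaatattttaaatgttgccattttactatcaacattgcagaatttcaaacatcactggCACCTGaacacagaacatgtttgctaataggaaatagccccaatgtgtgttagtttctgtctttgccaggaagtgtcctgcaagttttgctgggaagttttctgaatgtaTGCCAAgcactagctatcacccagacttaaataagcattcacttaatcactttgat
Reg3b (chr6:78370707-78370860, plus strand): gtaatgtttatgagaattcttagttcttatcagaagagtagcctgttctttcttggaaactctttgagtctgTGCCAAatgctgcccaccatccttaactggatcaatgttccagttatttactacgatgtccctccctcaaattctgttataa
Reg3g (chr6:78468875-78469124, minus strand): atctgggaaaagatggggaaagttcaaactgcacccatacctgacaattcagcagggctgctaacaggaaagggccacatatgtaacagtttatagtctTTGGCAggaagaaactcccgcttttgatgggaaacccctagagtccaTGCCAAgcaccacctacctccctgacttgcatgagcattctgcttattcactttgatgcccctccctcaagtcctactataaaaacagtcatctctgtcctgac
TGCCAA was found upstream of 6 of the 7 genes, all those on chromosome 6, and in 12.3% of the 32851 upstream windows in the RefSeq table. CACCTG was found upstream of 5 genes (Reg2, Reg3a, Reg3b, Reg3d and Reg4), against 17.2% of all windows. TATAAA was found upstream of Reg1, Reg2, Reg3b and Reg3g, against 12.4% of all windows, at any position on either strand. In these 4 genes it began 27 to 30 bases before the start, and in Reg3g also at 161 bases. The share of windows with a match at 27 to 30 bases was not counted. These matches are letters in a window and do not show that a factor binds. TTCNNNGAA, the form bound by STAT factors, was found upstream of Reg3b and Reg3d, against 7.02% of all windows. Upstream of the start, Reg3b and Reg3g were the most alike (68.4% identity), while Reg3a and Reg3b shared 46.1%.

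The family was among the strong signals of these stomach libraries, and it was almost absent from 1 of them. Of 11738 genes with at least 1 FPKM in at least 3 libraries, Reg1 ranked 21 and Reg2 ranked 31 by mean FPKM, and 6 of the 7 members passed that filter. The members took 0.222%, 0.951% and 0.609% of all reads in the 3 saline libraries, listed as replicates 1, 2 and 4. They took 0.689% in Riclin replicate 2 and 0.793% in Riclin replicate 4. In Riclin replicate 3 they took 42 of 40050267 reads, or 0.000105% (95% Wilson interval 0.000078% to 0.000142%, counting error only). In bulk RNA such as this, fewer cells of a type and less RNA per cell cannot be told apart.

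Reg1, a pancreatic stone protein gene, measured 1453, 8886 and 5678 FPKM in saline replicates 1, 2 and 4. It measured 3782, 0.680 and 4087 FPKM in Riclin replicates 2, 3 and 4. The groups overlapped: Riclin replicates 2 and 4 lay between the lowest and the next saline library. The mean was 5339 ± 3728 FPKM for saline and 2623 ± 2276 for Riclin (SD, n = 3 each), and 3934 for Riclin without replicate 3. In Riclin replicate 3, where 21 reads were found, Reg1 was 2136-fold below the lowest other library.

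Reg2, its nearest relative in sequence, measured 1193, 2870 and 1968 FPKM in saline and 4773, 0.144 and 4180 FPKM in Riclin. Riclin replicates 2 and 4 were thus the highest of the 6 libraries and Riclin replicate 3 the lowest, on 4 reads. The mean was 2010 ± 839 FPKM for saline and 2984 ± 2601 for Riclin (SD, n = 3 each), and 4477 in Riclin without replicate 3. The order of the pair differed between groups in the libraries with acinar transcripts. Reg1 stood 1.22, 3.10 and 2.89 times as high as Reg2 in saline, but at 0.792 and 0.978 of it in Riclin replicates 2 and 4. In Riclin replicate 3 the ratio was 4.73, on 21 and 4 reads.

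Reg3d, the third gene known from the pancreas, measured 53.9, 193 and 118 FPKM in saline and 180, 0 and 183 FPKM in Riclin. Its means were 121 ± 69.5 and 121 ± 105 FPKM (SD, n = 3 each), and 181 FPKM for Riclin without replicate 3. Riclin replicates 2 and 4 stood close together, between the highest and the middle saline library. With 0 reads in Riclin replicate 3, where 3 reads would give 0.0958 FPKM, Reg3d was at least 563-fold lower there than in any other library.

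**Figure D1:**
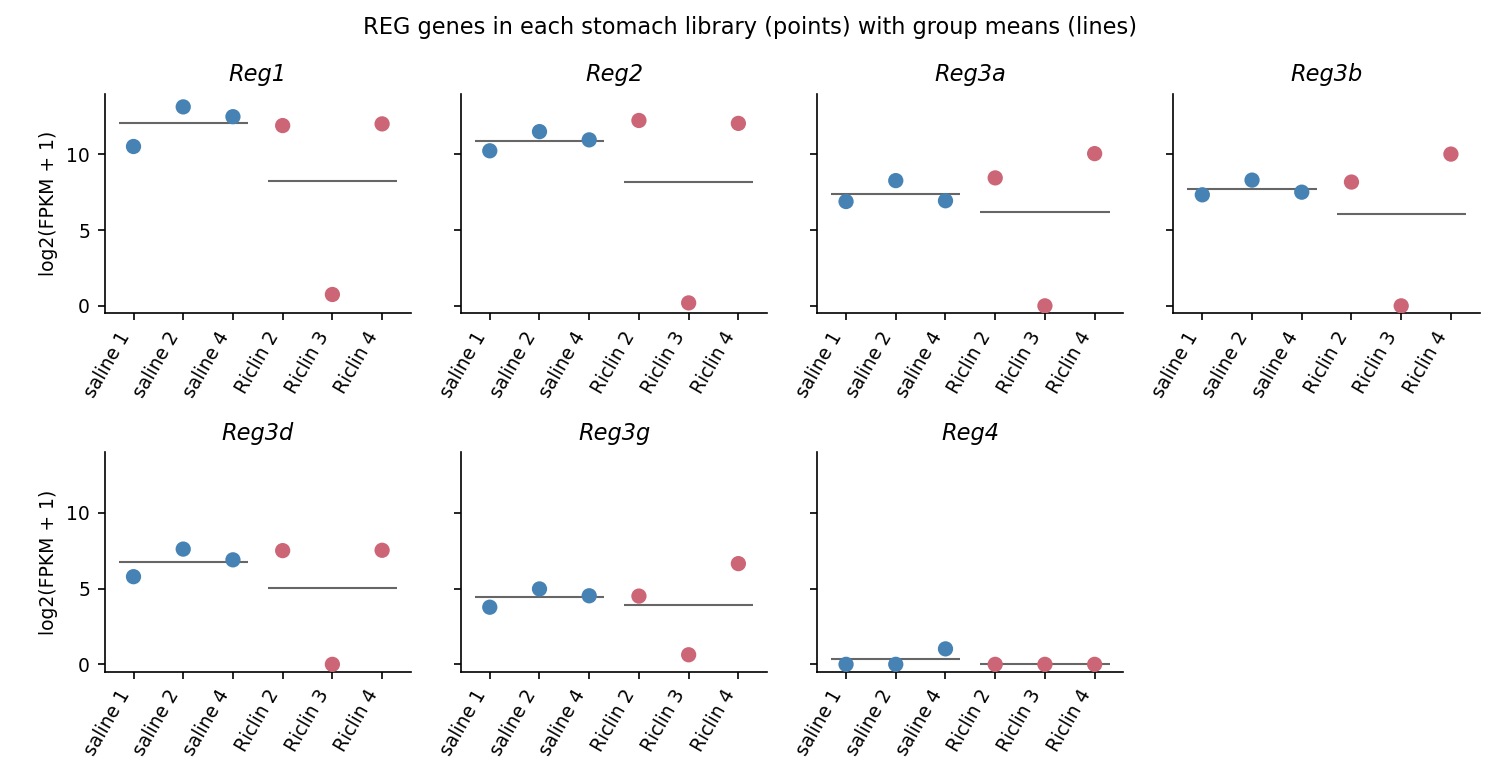
Level of each REG gene on the log2(FPKM + 1) scale (vertical axis) in the 3 saline libraries (blue) and 3 Riclin libraries (red), with lines at the group means. Riclin 3 lies at or near 0 for all 6 genes of chromosome 6, and Riclin 4 is the highest point for Reg3a, Reg3b and Reg3g, at 1050, 1026 and 98.8 FPKM.

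Among the antibacterial and pancreatitis-associated members, Riclin replicate 4 was the highest library. Reg3a measured 117, 305 and 121 FPKM in saline and 345, 0 and 1050 FPKM in Riclin. Reg3b, active against Gram-negative bacteria in the gut, measured 159, 312 and 179 FPKM in saline and 285, 0 and 1026 FPKM in Riclin. Reg3g, which binds peptidoglycan of Gram-positive bacteria, measured 12.6, 30.4 and 21.9 FPKM in saline and 21.6, 0.549 and 98.8 FPKM in Riclin. Riclin replicate 4 was thus 3.04, 3.29 and 3.25 times the next highest library for these genes. Being highest there by at least 2-fold held for 3 of the 6 members tested, against 0.17% of the genes tested, by a rule also chosen after the values were seen. For Reg1, Reg2 and Reg3d it was at 0.460, 0.876 and 0.947 of the highest other library.

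In Riclin replicate 3 all 3 of these genes were again the lowest. All 6 members tested were below every other library there, against 5.3% of the genes tested, a rule chosen after the values were seen. Reg3a and Reg3b had 0 reads there and were at least 1303-fold and 1609-fold below the lowest other library, by a floor of 3 reads. Reg3g had 17 reads there, nearly as many as Reg1, and was 23.0-fold below the lowest other library. It was the member least reduced in that library. Group means were 181 ± 107 and 465 ± 535 FPKM for Reg3a (SD, n = 3 each). They were 217 ± 83.2 and 437 ± 530 FPKM for Reg3b, and 21.6 ± 8.89 and 40.3 ± 51.7 FPKM for Reg3g. Without replicate 3 the Riclin means were 698, 656 and 60.2 FPKM. Each Riclin SD over 3 libraries exceeded its mean, so the spread within the group was larger than the difference between groups.

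Reg4 was listed at 0 FPKM in 5 libraries and at 1.03 FPKM, on 33 reads, in saline replicate 4. Of the 23550 genes, 0.0552% (13) had at least 1 FPKM there and 0 in every other library. Of 31 listed intestinal genes, 22 were at their highest in that library. The share of all genes highest there was not counted, so the 22 cannot be read as an excess. The brush border enzyme gene Alpi stood at 42.0 FPKM there against 0.146 to 1.998 elsewhere, and the fatty acid binding gene Fabp2 at 54.3 against 2.59 to 24.6. Vil1, the gene of an actin-binding brush border protein also expressed elsewhere in the gut, stood at 39.1 FPKM against 17.2 to 39.2. By summed FPKM the goblet and Paneth list was highest in saline replicate 4, at 1401 against 613 to 1198, but the absorptive list was lowest there, at 1823 against 2092 to 3133. Their part in the Reg4 reads was not tested. The other members were not at their highest in that library.

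Levels of the 6 measured members followed a nearly fixed order outside Riclin replicate 3. In saline the order was Reg1, Reg2, Reg3b, Reg3a, Reg3d and Reg3g in each of the 3 libraries. In Riclin replicates 2 and 4 both neighbouring pairs were exchanged, with Reg2 above Reg1 and Reg3a above Reg3b. The ratio of Reg3a to Reg3b was 0.735, 0.977 and 0.674 in saline and 1.21 and 1.02 in Riclin replicates 2 and 4. Reg3a and Reg3b were thus nearly equal in saline replicate 2 and Riclin replicate 4. Reg1 and Reg2 were also nearly equal in Riclin replicate 4, where Reg1 stood at 0.978 of Reg2. In reads Reg1 was the higher there (119805 against 110301), so the order of that pair in FPKM depends on the gene lengths used. Neither exchange was tested. Of the summed REG FPKM, Reg1 made up 48.6% to 70.5% in saline and 40.3% and 38.5% in Riclin replicates 2 and 4. Reg3a and Reg3b held 9.88% and 9.66% in Riclin replicate 4, against at most 3.90% and 5.31% in the other libraries.

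**Figure D2:**
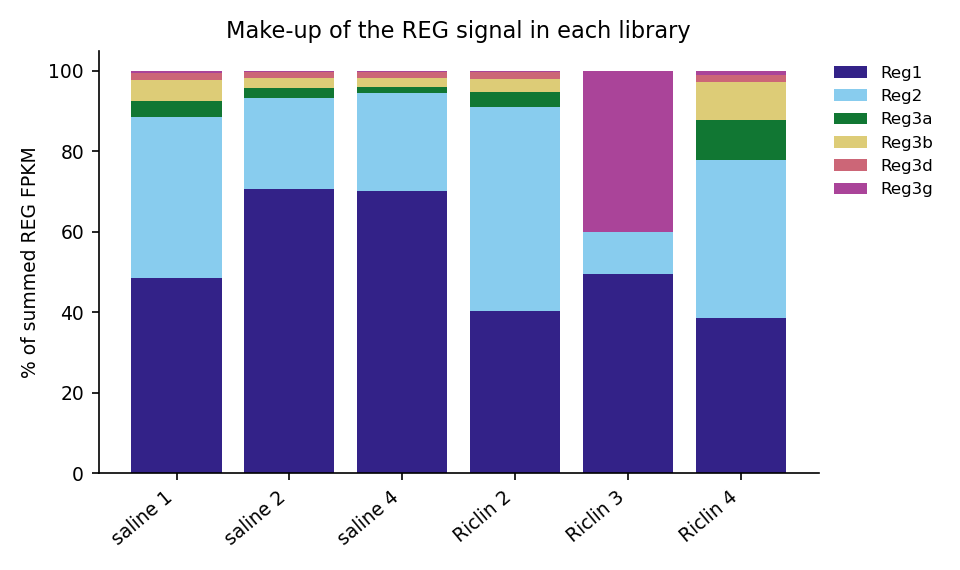
Share of each gene in the summed REG FPKM (vertical axis, percent) for each of the 6 libraries. Reg1 (dark blue) holds 70.5% and 70.2% in saline 2 and 4, Reg2 (light blue) holds 50.8% in Riclin 2, and the bar of Riclin 3 rests on 42 reads.

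Between the groups, limma gave log2 fold changes (Riclin minus saline, on log2(FPKM + 1)) below 0 for all 6 genes that passed the filter. The share of all tested genes below 0 on that scale was not counted. The changes were -3.82 (SE 2.76) for Reg1, -2.74 (SE 2.89) for Reg2 and -1.75 (SE 1.85) for Reg3d. For Reg3a, Reg3b and Reg3g they were -1.20 (SE 2.27), -1.65 (SE 2.23) and -0.50 (SE 1.30). All but those of Reg1 were smaller than their standard error. In mean FPKM only Reg1 and Reg3d lay lower in Riclin, against 38.7% of all tested genes, so the log scale and the mean differ in sign for the other 4. The median over the 6 was -1.70, and -1.65 over all 7 with Reg4 included, beside 0.040 over all genes tested. By limma 0 of the 6 members passed a Benjamini-Hochberg adjusted p of 0.05, where 0% of the 11738 genes did. The unadjusted p was under 0.05 in 693 genes, and voom on recovered reads also gave 0 adjusted calls. In 0 of the 6 members did the groups fail to overlap, against 11.2% of all genes.

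Without Riclin replicate 3 the sign turned for 5 of the 6 members. The share of all tested genes whose sign turned was not counted, so this count cannot be read as an excess. The log2 fold change was then 1.24 (SE 0.39) for Reg2, 1.88 (SE 0.56) for Reg3a and 1.38 (SE 0.53) for Reg3b. It was 0.75 (SE 0.46) for Reg3d and 1.15 (SE 0.60) for Reg3g, while Reg1 was at -0.090 (SE 0.71). The median over the 6 was 1.20 and that over all genes 0.0035. In Reg2 and Reg3a both remaining Riclin libraries lay above every saline library, against 10.1% of tested genes, and in 0 members did they lie below every saline library, against 11% of tested genes. By mean FPKM, Reg2 was 2.23-fold, Reg3a 3.86-fold, Reg3b 3.03-fold, Reg3d 1.49-fold and Reg3g 2.78-fold higher in those 2 Riclin libraries than in saline, and Reg1 was at 0.737 of saline. For Reg3a, Reg3b and Reg3g the size rested on Riclin replicate 4. Riclin replicate 2 alone stood at 345, 285 and 21.6 FPKM, beside saline means of 181, 217 and 21.6. By limma 0% of the 11738 genes passed the adjusted threshold in that comparison, with 685 at an unadjusted p under 0.05.

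**Figure D3:**
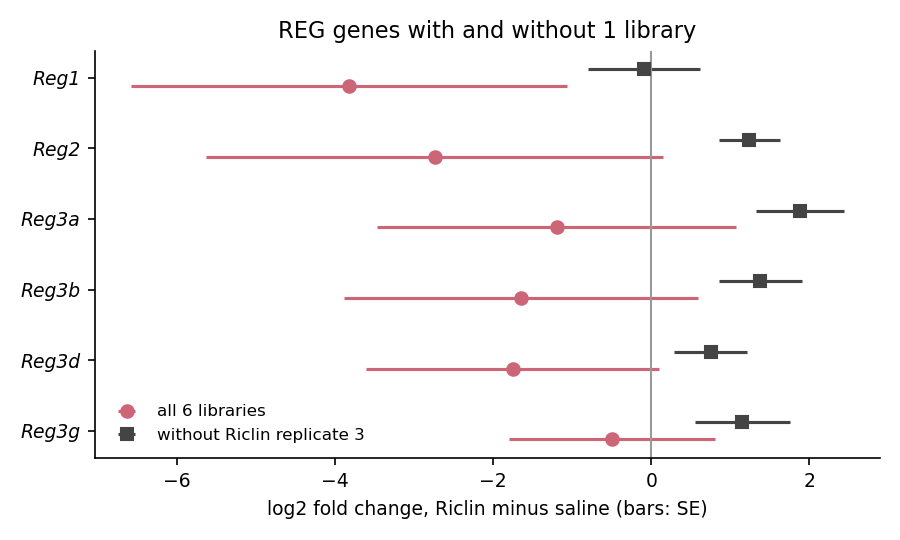
Log2 fold change of each REG gene, Riclin minus saline (horizontal axis, bars show SE), from all 6 libraries (red circles) and without Riclin replicate 3 (dark squares). All red points lie below 0, from -3.82 to -0.50, and 5 of the 6 dark points lie above it, up to 1.88.

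Acinar transcripts shared with the family the low levels in Riclin replicate 3, but not all of its other differences. Of the 27 acinar genes tested, 26 had lower log2 levels in Riclin and 1 higher, with a median log2 fold change of -2.94, and 0 passed the adjusted threshold. By mean FPKM 26 of the 27 lay lower in Riclin, as did 2 of the 6 REG genes, against 38.7% of all tested genes. Without Riclin replicate 3 the acinar median was 0.11, with 19 higher and 8 lower, beside 1.20 for the 6 REG genes. Riclin replicate 3 lay below 1% of the lowest other library for 5 of the 6 tested REG genes and 18 of the 27 acinar genes, against 0.392% of all tested genes. Summed acinar FPKM ran from 38209 to 155726 in saline and from 487 to 104847 in Riclin, and 8 of the 27 genes, Cpa1 among them, were listed at 0 in Riclin replicate 3. The acinar reads left there came mostly from Pnliprp2 (52.4%), Cela1 (17.2%) and Pnliprp1 (16.3%). The islet hormone genes Ins2 and Gcg stood at 0.0428 and 0.389 FPKM in Riclin replicate 3, against 9.97 to 31.9 and 1.44 to 5.27 elsewhere. The part of pancreatic tissue in the REG levels was not tested.

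Counted against acinar reads, the summed family kept to a narrower range over the 5 libraries other than Riclin replicate 3. For Reg3a and Reg3b the range over those libraries was wider than in FPKM. REG reads per 1000 acinar reads were 53.5, 56.9 and 38.6 in the saline libraries and 60.2 and 73.8 for Riclin replicates 2 and 4. Riclin replicate 3 had 1.65, so the family was lower there than the acinar list as a whole. Pnliprp2, Cela1 and Pnliprp1 held 85.9% of the acinar reads in that library, so this value does not compare the family with a typical acinar gene. There 8 of the 27 acinar genes were listed at 0, as were Reg3a, Reg3b and Reg3d, and Ctrb1 had 7 reads. Saline replicate 1, lowest of the saline libraries in FPKM for every chromosome 6 member, was on this scale the highest of them for Reg2, Reg3a, Reg3b, Reg3d and Reg3g and the lowest for Reg1. Reg1 ran from 25.5 to 41.0 reads per 1000 over those 5 libraries, with the groups overlapping. Reg2 measured 20.0, 11.9 and 8.64 in saline and 28.9 and 27.0 in Riclin. Reg3d measured 1.02, 0.902 and 0.582 in saline and 1.23 and 1.33 in Riclin. Reg3a measured 2.35, 1.53 and 0.640 in saline and 2.52 and 8.18 in Riclin. For 3 of the 6 members tested, Reg2, Reg3a and Reg3d, both Riclin libraries lay above all 3 saline libraries, against 1.04% of the genes tested. Saline replicate 1 has the fewest acinar reads of the 5, which raises all its values on this scale and makes that rule harder to meet. The share is thus tied to the choice of scale. How many genes are highest in saline replicate 1 on this scale was not counted. Reg3a, Reg3b and Reg3g stood at 8.18, 7.25 and 0.711 in Riclin replicate 4, against at most 2.52, 2.90 and 0.235 in the other 4 libraries. Reg3g stood at 0.667 in Riclin replicate 3, on 17 reads.

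**Figure D4:**
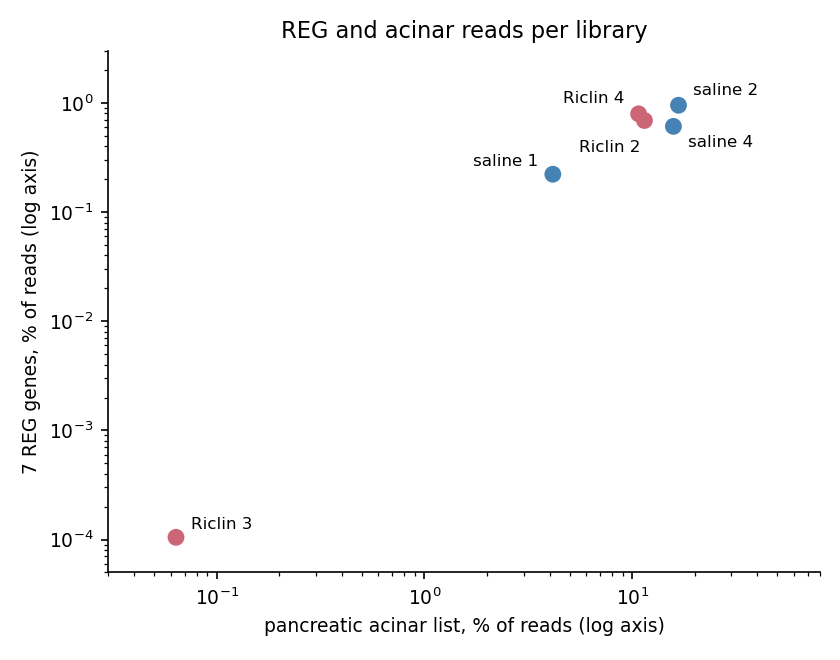
Percent of reads from the 7 REG genes (vertical log axis) against percent from the acinar list (horizontal log axis), 1 point per library (blue saline, red Riclin). Riclin 3 lies far below the rest on both axes, at 0.0636% acinar and 0.000105% REG reads.

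**Figure D5:**
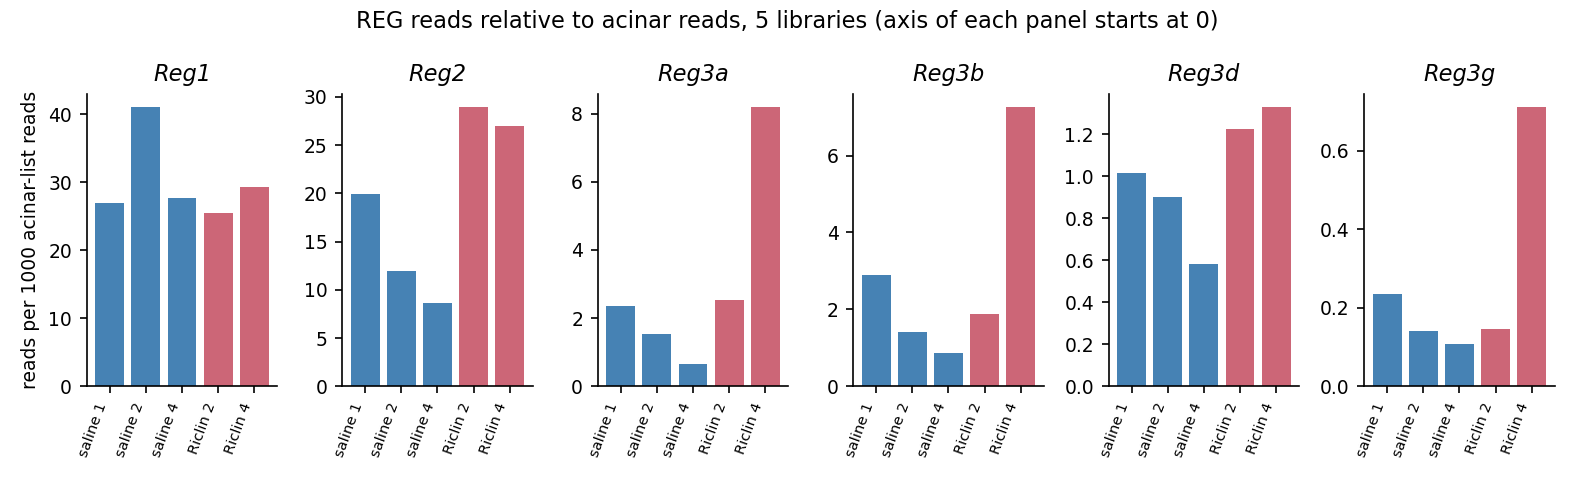
Reads of each REG gene per 1000 reads of the acinar list (vertical axes, each from 0) in the 5 libraries other than Riclin replicate 3. Reg2, Reg3a and Reg3d are higher in Riclin 2 and 4 (red) than in the saline libraries (blue), and Reg3a, Reg3b, Reg3d and Reg3g are highest in Riclin 4.

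The genes outside the family with the most similar pattern were found for each member. Likeness was the root mean square difference of log2(FPKM + 1) profiles centred over the 6 libraries, and all of these profiles share their lowest value in Riclin replicate 3. For Reg1 the nearest were the trypsinogen gene Try5 (0.13), the amylase gene Amy2a1 (0.24) and the carboxypeptidase gene Cpb1 (0.26). For Reg2 they were the chymotrypsin-like gene Ctrl (0.54), 2210010C04Rik (0.56) and Cpb1 (0.58). For Reg3d they were the trypsin gene Prss3 (0.31), Cuzd1 (0.40) and the ribonuclease gene Rnase1 (0.45). Reg3a and Reg3b were less like any gene outside the family, with Prss3 nearest at 0.86 and 0.77, then Rnase1 (1.08) and Cuzd1 (1.10) for Reg3a and Gp2 (0.94) and Rnase1 (0.96) for Reg3b. They were closest to each other, at 0.29, and at 0.31 without Riclin replicate 3. Reg3g was nearest to the mucosal scavenger receptor gene Dmbt1 (0.68), then Gm5771 (0.73) and the water channel gene Aqp12 (0.83). Dmbt1 was at 31.8 FPKM in Riclin replicate 3 and 177 to 540 FPKM elsewhere. These likenesses rest largely on Riclin replicate 3. Over the other 5 libraries, among 11732 genes outside the family, Try5 was still the nearest to Reg1 (0.14), and Amy2a1 and Cpb1 ranked 9 and 17. Ctrl ranked 345 for Reg2 and Dmbt1 55 for Reg3g. Prss3 ranked 121 for Reg3a, 223 for Reg3b and 85 for Reg3d, and Rnase1 ranked 5678 for Reg3a and 9324 for Reg3b.

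Receptors of REG proteins and inducers of REG genes formed another list. Of 36 listed, 25 were tested, 15 with higher and 10 with lower log2 levels in Riclin, with a median log2 fold change of 0.11 and 0 past the adjusted threshold. Without Riclin replicate 3 the median was 0.046, with 14 higher and 11 lower. Over all genes tested the medians were 0.040 with that library and 0.0035 without it. The share of all tested genes in each direction on the log2 scale was not counted, for this and the other lists. Extl3, reported as a REG receptor, stood at 12.1 ± 1.37 FPKM for saline and 13.2 ± 1.93 for Riclin (SD, n = 3 each). Without replicate 3 the Riclin mean of Extl3 was 14.3 FPKM. Il22ra1, the receptor chain for interleukin 22, measured 2.16 ± 0.75 and 1.56 ± 0.65 FPKM. The transcription factor gene Stat3 measured 24.1 ± 2.36 and 26.4 ± 2.54 FPKM, and its feedback target Socs3 9.42 ± 1.05 and 7.19 ± 1.52 FPKM. Without replicate 3 the Riclin means were 1.88 FPKM for Il22ra1, 27.3 for Stat3 and 6.33 for Socs3. In Riclin replicate 4, where Reg3a, Reg3b and Reg3g were highest, Stat3 was also at its highest, 29.4 FPKM against 21.4 to 25.6, and Socs3 at its lowest, 6.01 against 6.66 to 10.3.

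The stomach endocrine genes Chga and Hdc were not low in Riclin replicate 3. They stood there at 396 and 16.9 FPKM, against 252 to 360 and 10.2 to 17.3 elsewhere. The antral hormone gene Gast, whose product stimulates Reg1 in the stomach, stood at 885 ± 187 FPKM for saline and 271 ± 233 for Riclin (SD, n = 3 each), with 2.62 FPKM in Riclin replicate 4 and 389 in Riclin replicate 3. The antral factor gene Pdx1 ran from 6.51 to 8.48 FPKM in saline and from 1.93 to 4.29 in Riclin, lowest in Riclin replicate 4. Its adjusted p by limma was 0.624. Riclin replicate 4 was thus low in antral transcripts and high in Reg3a, Reg3b and Reg3g, and the part of the first in the second was not tested. Over the other lists, again with 0 genes past the adjusted threshold, the median log2 fold change turned in sign without Riclin replicate 3 for islet and gastric endocrine genes. It went from -0.68 (0 higher, 4 lower) to 0.14 (4 higher, 0 lower) for 4 islet genes, and from -0.0083 to 0.069 for 11 gastric endocrine genes. The direction was the same with and without that library for the rest. The medians with it and without it were -0.98 and -1.15 for 7 antral genes, 0.58 and 0.56 for 6 chief cell genes, and 0.39 and 0.33 for 8 parietal cell genes. They were -0.15 and -0.28 for 8 surface mucous genes, -0.22 and -0.15 for 13 absorptive genes, and -0.47 and -0.47 for 7 goblet and Paneth genes. For 11 other secreted antimicrobial or lectin genes they were 0.059 and 0.11.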

How the data were processed

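The authors deposited 1 table of FPKM values for 23550 gene symbols in 6 stomach libraries. Per the submitters' processing notes the build was mm10 and Bowtie2 was used. No source used here gives the counter, the annotation or the use of strand. Groups come from the treatment labels, and replicate numbers from the titles.

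Library totals were inferred as the smallest whole numbers whose ratios matched the commonest FPKM ratios between libraries. Reads were recovered with the smallest whole gene length that made FPKM times length times library total whole in every library (relative tolerance 1e-09, 23548 genes). The steps were tested on simulated data. Wilson intervals (95%) and the floor of 3 reads cover counting error only. Genes with at least 1 FPKM in at least 3 libraries, 11738, were compared on log2(FPKM + 1) by limma 3.58.1 (R 4.3.3), two-sided, with an intensity trend in the prior, no covariate and Benjamini-Hochberg adjustment at 0.05. Their p-values cover the spread among libraries, which may be technical.

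Named genes were the 7 members, the 3 nearest tested genes of each measured member, and fixed markers of pancreas, intestine, stomach and REG induction. Genes outside that rule were named after their values were seen. The members, lists and alternatives were chosen with earlier results of these data known. Positions and transcripts came from GENCODE M21 and upstream sequences from RefSeq (GRCm38.p6). All 7 members matched in both. Alternatives were a pseudocount of 0.1, no filter or one at 5 FPKM, other scalings, a robust prior, a replicate block, libraries left out, and voom, added after the data were seen. Figures used matplotlib 3.10.9.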

Additional observations from a re-analysis of the deposited data

How the results depend on the processing

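The pseudocount of 0.1, both other filters, both scalings and voom kept the median log2 fold change of the family below 0 (-3.70 to -1.65) and each member's as well. Over the fits that left out 1 library the median ran from -3.38 to 1.20, with a value above 0 only without Riclin replicate 3. By gene the range was -5.71 to -0.090 for Reg1, -4.77 to 1.24 for Reg2, -3.14 to 1.88 for Reg3a, -3.62 to 1.38 for Reg3b, -3.01 to 0.75 for Reg3d, -1.85 to 1.15 for Reg3g. With the replicate block the median turned to 0.87, and the log2 fold change was 0.91 for Reg2, 1.64 for Reg3a, 1.19 for Reg3b, 0.26 for Reg3d, 0.82 for Reg3g, while Reg1 stayed below 0. The block leaves libraries 2 and 4 of each group to carry the comparison, so leaving out saline replicate 1 and Riclin replicate 3, the libraries lowest in acinar transcripts, gave the same values by construction. Nothing says that a shared number marks a shared batch. Deviations of same-numbered libraries from their group means correlated at 0.22 for replicate 2 and 0.011 for replicate 4. Pairs with unlike numbers correlated at 0.21 (saline 2 with Riclin 4) and 0.27 (saline 4 with Riclin 2). The number of genes past the adjusted threshold by limma was 0 in most settings, 2 with a robust prior, and 0 to 1 when 1 library was left out, the 1 without saline replicate 2. The cause was not tested. The 2 were Clca1 and Gm52608 and the 1 was Cd79b, none of them a member. With 3 libraries a group, the SEs of the members were 1.30 to 2.89 on the log2 scale. Zeros of Reg3a, Reg3b and Reg3d in Riclin replicate 3 allow up to 0.0895, 0.0987 and 0.0958 FPKM.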

Other observations

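Riclin replicate 4 was the highest library by at least 2-fold over the next for 20 of 11738 tested genes (0.17%), and Reg3a, Reg3b and Reg3g were 3 of them. The following of the others were named after their values were seen. Serpina3n, a protease inhibitor of the acute phase, stood at 19.4 FPKM there against 3.18 to 6.87 elsewhere. The iron hormone gene Hamp stood at 4.01 FPKM against 0.569 to 1.72, and the resistin-like gene Retnlg at 31.9 against 3.04 to 10.4. The eosinophil ribonuclease genes Rnase2a and Ear2 stood at 38.3 and 9.26 FPKM, 12.2 and 4.86 times the next library, and belong to a family whose members share sequence. These are values of 1 library, which has no replicate.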
